A study of Mus musculus with 10 samples.

Results

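Liver endothelial cells are represented here by 39 genes: receptors and enzymes typical of the sinusoidal lining, general endothelial genes, and the angiocrine ligands, signals that endothelial cells send to hepatocytes. The genes were picked by symbol from a list of names, with no measured value in the rule. The list itself was drawn up with earlier results of these data known. All 39 were found among the 19414 genes of the table, and all 39 were among the 13157 genes that passed the filter on low values and were tested. RNA came from livers of 10 female mice of the HET3 stock, a genetically heterogeneous cross of inbred strains, so that each mouse carries its own genotype. The Longevity diet group holds mice LD_405, LD_406, LD_442, LD_513 and LD_515, and the standard diet group holds mice SD_403, SD_500, SD_501, SD_502 and SD_646, with 5 mice in each. Feeding lasted 5 months, and the mice are described as 25 months old, which may be their age before or after the feeding. The title of the series calls the Longevity diet methionine-supplemented, and no further composition of either diet is given in the sources used here. Whole liver was sequenced after poly-A selection, from 1 sex and with no cage or batch recorded.

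Sinusoidal endothelial cells line the capillaries of the liver lobule. They are perforated by fenestrae, lie on little basement membrane, and take up circulating waste such as modified lipoproteins, hyaluronan and immune complexes through scavenger receptors. Growth and survival signals reach endothelium through VEGF and angiopoietin receptors. Liver endothelium in turn releases WNT2, WNT9B and RSPO3, which set the program of hepatocytes near the central vein, and BMP2 and BMP6, which drive hepcidin production in hepatocytes.

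Levels are in CPM, counts scaled to 1e+06 per library, and each was analysed as log2(CPM + 0.1). Estimated depth was 29.95 ± 6.46 M reads (M, 1e+06) on the Longevity diet and 42.5 ± 4.34 M reads on the standard diet (mean ± SD, n = 5 mice each, exact two-sided permutation p = 0.0159). At the shallowest library 3 reads correspond to 0.121 CPM. None of 12 housekeeping genes was at 0 in any library, and 3 of the members were listed at 0 in 1 library each. Hepatocyte genes made up a large share of every library: a list of 18 markers summed to between 199529 and 264288 CPM on the Longevity diet and between 158083 and 210258 CPM on the standard diet. Values per mouse are given in the order of the mouse names above. Positions are on mm39, and errors after ± are SD over 5 mice.

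Most of the endothelial genes stood lower in livers of the Longevity diet, by amounts that did not pass the test across all genes. Of the 39 members, 0 fell and 0 rose at an adjusted p under 0.05 (limma, Benjamini-Hochberg over 13157 genes), where 1.23% of all genes tested fell and 0.661% rose. The log2 change, Longevity diet over standard diet, was below 0 for 37 members and above 0 for Wnt2 and Wnt9b, and 60.4% of all genes tested lay below 0. The median log2 change was -0.62 over the members and -0.11 over all genes tested, and the members ranged from -2.01 for Lyve1 to 0.92 for Wnt9b, whose change was 0.09 without SD_403. An unadjusted p under 0.05 with a lower level was found for 21 members and with a higher level for 0 members, against 11.6% and 5.92% of all genes. Because the members were chosen with earlier results of these data known, their shared direction is no independent evidence. The 5 Longevity diet values lay below all 5 standard diet values for 1 member, Fcgr2b, a separation that 3.49% of all genes showed. Scaling by median-of-ratios moved the median of all genes by 0.102 and left 35 members below 0, and quantile normalization moved it by 0.114 and left 34. The gap between the member median and the median of all genes was -0.51 with the deposited scaling, -0.51 with median-of-ratios and -0.52 with quantile normalization. Whole liver RNA was measured, so fewer endothelial cells and less RNA per endothelial cell cannot be told apart in any of these values.

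**Figure D1:**
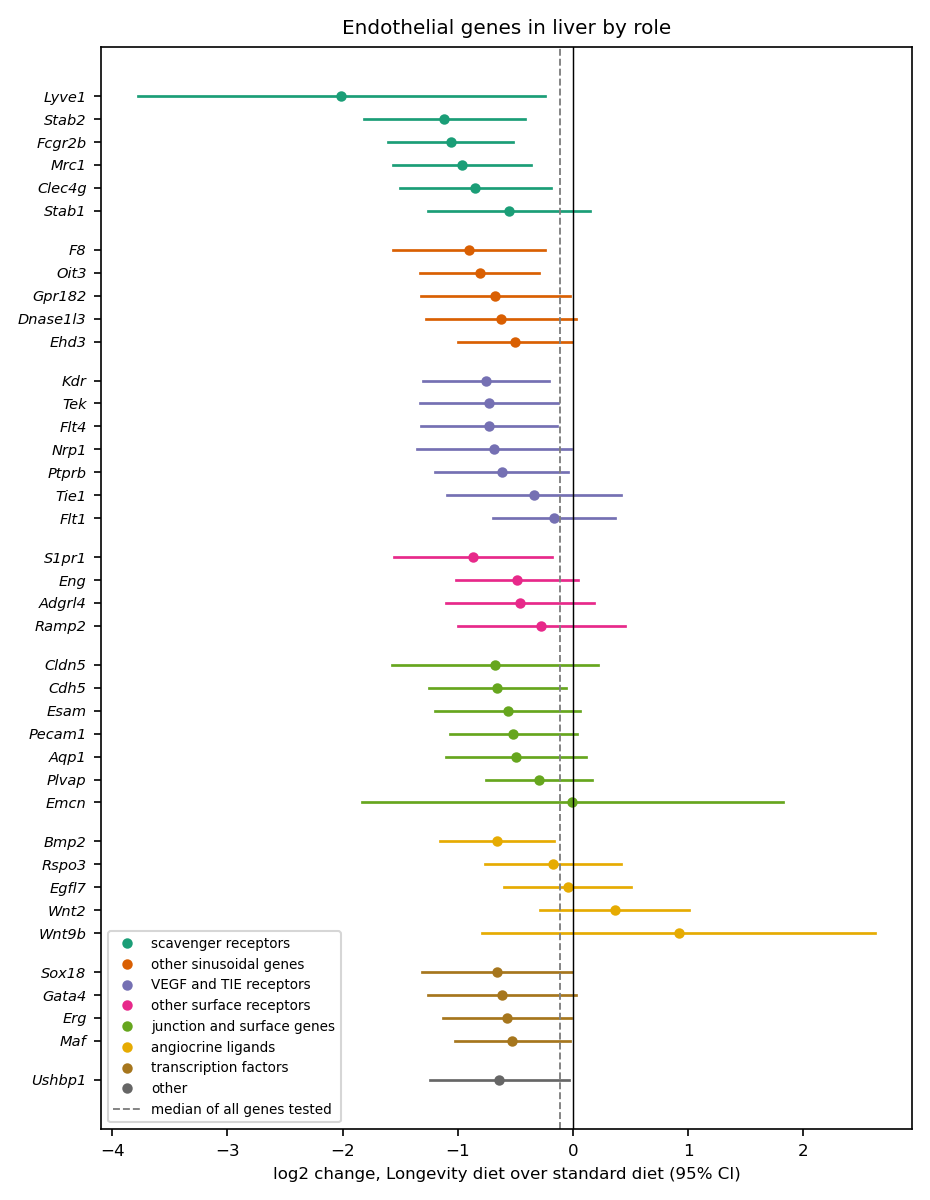
Log2 change (Longevity diet over standard diet) of each of the 39 endothelial genes, grouped by role, with bars for the 95% confidence interval from limma. The dashed line marks the median of all genes tested, -0.11, and points of 37 members lie left of 0, with Wnt2 and Wnt9b to the right.

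The scavenger receptors had the lowest median among the role groups, -1.01 on the log2 scale over 6 genes, all 6 below 0. Fcgr2b (ENSMUSG00000026656.16, chromosome 1 from 170786186 to 170804116, minus strand) encodes the inhibitory IgG receptor with which sinusoidal cells clear immune complexes. It measured 29.2, 16.8, 34.3, 30.8 and 13.8 CPM on the Longevity diet, against 44.0, 48.0, 44.9, 56.8 and 53.1 CPM on the standard diet. The highest Longevity diet value, in LD_442, was below the lowest standard diet value, in SD_403. Its mean was 25.0 ± 9.10 CPM on the Longevity diet and 49.4 ± 5.46 CPM on the standard diet. The fitted log2 change was -1.06 (SE 0.25, 95% CI -1.60 to -0.52), which is 2.09-fold lower on the log2(CPM + 0.1) scale. The limma adjusted p was 0.0506, next to the threshold, and it passed in 8 of 22 alternative settings, with a range of 0.0178 to 0.293. Part of the transcript is shared: 6.7% of its 50-base stretches also occur in another gene, and 4.48% occur in Fcgr3, a neighbouring relative.

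Stab2 (chromosome 10 from 86677062 to 86843889, minus strand) encodes stabilin-2, the main hyaluronan scavenger of the sinusoid. Its level was 22.2, 8.57, 16.2, 18.9 and 27.1 CPM on the Longevity diet and 42.5, 28.4, 26.9, 70.0 and 33.9 CPM on the standard diet. Of the Longevity diet mice 4 lay below every standard diet mouse, and LD_515, which was lowest for most other members, was highest here. The means were 18.6 ± 6.93 CPM on the Longevity diet and 40.4 ± 17.7 CPM on the standard diet (log2 change -1.12, SE 0.33, 95% CI -1.82 to -0.42, limma adjusted p = 0.102). Mrc1 (chromosome 2 from 14234203 to 14336868, plus strand), the mannose receptor that takes up glycoproteins and collagen fragments, measured 14.2, 12.4, 38.6, 20.5 and 13.6 CPM on the Longevity diet, against 40.9, 32.9, 33.0, 38.4 and 31.7 CPM on the standard diet. LD_442 alone reached the standard diet range. The log2 change of Mrc1 was -0.96 (SE 0.28, 95% CI -1.56 to -0.36, limma adjusted p = 0.1002).

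Lyve1, a hyaluronan receptor of sinusoidal and lymphatic endothelium, was the member with the lowest log2 change and was barely expressed. Its mean was 0.765 CPM on the Longevity diet and 2.99 CPM on the standard diet, so it passed the filter through the standard diet mice. It measured 0.742, 0, 0.943, 1.91 and 0.231 CPM on the Longevity diet and 3.70, 3.33, 6.41, 0.851 and 0.665 CPM on the standard diet. LD_406 was listed at 0, the diets overlapped through SD_502 and SD_646, and the fitted change of -2.01 (SE 0.82, limma adjusted p = 0.224) depends on the 0.1 CPM added. Clec4g, a C-type lectin of the sinusoid, averaged 36.0 ± 17.8 CPM on the Longevity diet and 59.9 ± 11.9 CPM on the standard diet (log2 change -0.85, limma adjusted p = 0.167), with LD_405 at 64.2 CPM inside the standard diet range. Stab1, the scavenger receptor related to Stab2, averaged 28.5 ± 14.6 CPM on the Longevity diet and 38.0 ± 8.50 CPM on the standard diet (log2 change -0.55, limma adjusted p = 0.402), and its change was -0.80 without LD_405 and -0.28 without LD_515. Macrophages are also known to express Mrc1, Stab1, Fcgr2b and Lyve1, and the macrophage markers are given further on.

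The sequences before the start sites are shown for the 3 scavenger receptors with the smallest p and for Wnt2, a member whose log2 change was above 0. They were taken from RefSeq on GRCm38.p6, cover the 250 bases before the annotated start, and are read 5′ to 3′ on the gene's strand. Capitals mark the motifs searched on both strands: CGGAAG and AGGAAG, the core bound by ETS factors such as ERG, and AGATAA and TGATAA, the core bound by GATA factors such as GATA4. The windows are chr1:170976072-170976321 (minus strand) for Fcgr2b, chr10:87007943-87008192 (minus strand) for Stab2, chr2:14229164-14229413 (plus strand) for Mrc1 and chr6:18030446-18030695 (minus strand) for Wnt2.
Fcgr2b: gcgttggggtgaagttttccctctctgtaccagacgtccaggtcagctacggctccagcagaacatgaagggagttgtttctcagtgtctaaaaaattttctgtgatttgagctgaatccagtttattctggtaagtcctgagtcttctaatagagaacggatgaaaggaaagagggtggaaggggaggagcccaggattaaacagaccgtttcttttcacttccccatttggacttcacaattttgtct
Stab2: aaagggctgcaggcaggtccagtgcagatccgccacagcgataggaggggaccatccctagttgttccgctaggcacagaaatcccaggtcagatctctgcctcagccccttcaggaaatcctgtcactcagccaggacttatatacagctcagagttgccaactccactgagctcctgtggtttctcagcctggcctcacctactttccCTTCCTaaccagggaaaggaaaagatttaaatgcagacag
Mrc1: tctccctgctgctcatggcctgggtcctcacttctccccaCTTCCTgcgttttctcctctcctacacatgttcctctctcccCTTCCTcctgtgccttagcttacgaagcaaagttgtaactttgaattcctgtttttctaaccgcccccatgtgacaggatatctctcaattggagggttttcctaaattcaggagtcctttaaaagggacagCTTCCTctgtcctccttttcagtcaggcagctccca
Wnt2: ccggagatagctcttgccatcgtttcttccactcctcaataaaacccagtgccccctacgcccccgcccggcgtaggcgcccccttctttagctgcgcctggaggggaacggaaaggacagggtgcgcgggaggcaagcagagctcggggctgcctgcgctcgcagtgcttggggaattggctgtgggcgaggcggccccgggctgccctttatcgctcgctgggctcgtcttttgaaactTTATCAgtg
The Mrc1 window holds 3 ETS cores and the Stab2 window 1, all on the opposite strand as CTTCCT, while the Fcgr2b window holds neither motif and the Wnt2 window holds 1 GATA core. Such windows were matched for 23 of the 39 members. An ETS core occurred in 14 of them, or 60.9%, and in at least 1 window of 42.5% of 27025 genes, while a GATA core occurred in 3, or 13.0%, and in 18.8% of genes. The 2 ETS cores differed: AGGAAG occurred in 14 members (60.9%) and 32.3% of genes, and CGGAAG in 2 members (8.7%) and 15.3% of genes. A match of letters is a description of the window and not a binding site.

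**Figure D2:**
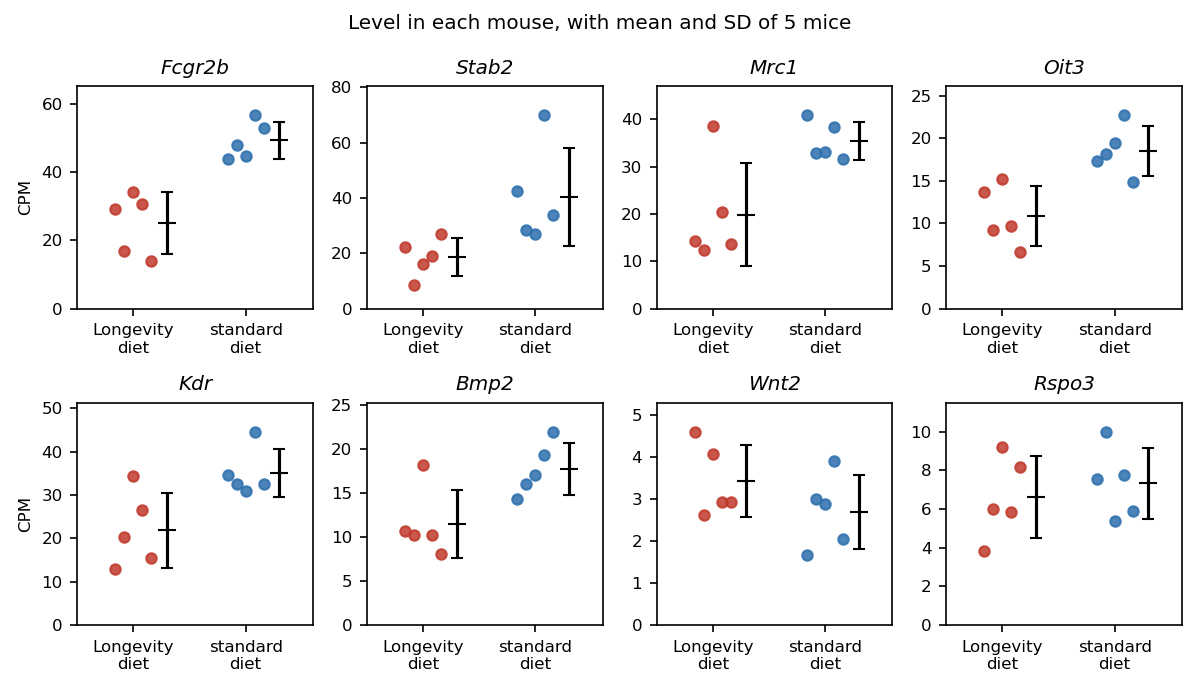
Level in CPM per mouse of 8 members, with the Longevity diet left of the standard diet in each panel, the horizontal bar at the mean and error bars of 1 SD (n = 5 mice each). The 5 Longevity diet points of Fcgr2b, 13.8 to 34.3 CPM, lie below all standard diet points, 44.0 to 56.8 CPM, while in the other 7 panels the diets overlap.

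The other genes typical of sinusoidal cells were lower in the same range, with a median log2 change of -0.68 over 5 genes, all 5 below 0. Oit3, which encodes a secreted zona pellucida domain protein, measured 13.7, 9.18, 15.2, 9.67 and 6.62 CPM on the Longevity diet, against 17.3, 18.1, 19.5, 22.8 and 14.9 CPM on the standard diet. Only LD_442 reached above the lowest standard diet value (log2 change -0.81, SE 0.24, limma adjusted p = 0.108). F8, coagulation factor VIII, which the body makes chiefly in liver sinusoidal endothelium, measured 2.64, 2.67, 4.91, 6.05 and 2.85 CPM on the Longevity diet and 6.41, 5.74, 8.11, 9.96 and 4.83 CPM on the standard diet. LD_442 and LD_513 lay within the standard diet range (log2 change -0.90, SE 0.31, limma adjusted p = 0.151). Gpr182, a chemokine-binding receptor, had a log2 change of -0.68 (limma adjusted p = 0.265), and 4 of its Longevity diet values lay below the standard diet range while LD_405, at 36.7 CPM, was above it. Dnase1l3, a secreted DNase that degrades circulating DNA, and Ehd3, a membrane trafficking protein, had log2 changes of -0.63 and -0.50 (limma adjusted p = 0.304 and 0.277).

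Among the VEGF and angiopoietin receptors all 7 genes were below 0, with a median log2 change of -0.68. Kdr, which encodes VEGFR2, the main signalling receptor of VEGF-A, measured 12.9, 20.2, 34.3, 26.6 and 15.5 CPM on the Longevity diet, against 34.6, 32.6, 30.9, 44.6 and 32.5 CPM on the standard diet. LD_442 was again the mouse inside the standard diet range. The means of Kdr were 21.9 ± 8.67 CPM on the Longevity diet and 35.0 ± 5.51 CPM on the standard diet (log2 change -0.75, SE 0.25, 95% CI -1.30 to -0.21, limma adjusted p = 0.147). Flt4, the VEGF-C receptor VEGFR3, measured 14.0, 9.06, 14.0, 14.3 and 6.81 CPM on the Longevity diet and 16.7, 20.8, 15.9, 29.9 and 13.4 CPM on the standard diet, an overlap of 3 Longevity diet mice with SD_646 (log2 change -0.73, limma adjusted p = 0.186). The angiopoietin receptor gene Tek (log2 change -0.73, limma adjusted p = 0.191), the VEGF co-receptor gene Nrp1 (-0.68, 0.275) and Ptprb, whose phosphatase acts on TIE2 (-0.62, 0.252), lay close to them. Flt1, encoding the VEGF-A decoy and receptor VEGFR1, and Tie1, the partner of TIE2, were nearer to 0, with log2 changes of -0.17 and -0.34 (limma adjusted p = 0.757 and 0.653). Without LD_515 the change of Tie1 was -0.02. The sign of Flt1 turned under quantile normalization, to 0.06.

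The median of the 4 remaining surface receptors was -0.47 on the log2 scale. S1pr1, the receptor through which sphingosine-1-phosphate steadies endothelial junctions, measured 13.1, 31.8, 43.0, 44.2 and 38.3 CPM on the Longevity diet and 56.2, 55.5, 56.7, 87.1 and 40.0 CPM on the standard diet. LD_442 and LD_513 exceeded the lowest standard diet value, in SD_646, and LD_405 was far below the other mice (log2 change -0.87, SE 0.32, limma adjusted p = 0.177, and a change of -0.55 without LD_405). Eng, endoglin, a co-receptor for BMP9 and BMP10, measured 125, 53.3, 70.1, 62.0 and 43.5 CPM on the Longevity diet, against 80.1, 91.7, 98.4, 104 and 90.0 CPM on the standard diet. Here 4 Longevity diet values lay below the standard diet range and LD_405 above it (log2 change -0.48, limma adjusted p = 0.330). The adhesion receptor gene Adgrl4 and Ramp2, a partner of the adrenomedullin receptor, had log2 changes of -0.46 and -0.28 (limma adjusted p = 0.440 and 0.702).

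The 7 genes of endothelial junctions and surface had a median of -0.52 on the log2 scale. Cdh5, VE-cadherin, measured 11.4, 9.26, 22.9, 16.9 and 7.85 CPM on the Longevity diet and 15.9, 19.5, 19.4, 25.3 and 20.7 CPM on the standard diet, and LD_405, LD_406 and LD_515 lay below the standard diet range (log2 change -0.66, limma adjusted p = 0.239). Pecam1, the adhesion molecule CD31, measured 13.1, 8.98, 18.0, 15.4 and 7.66 CPM on the Longevity diet, against 14.97, 19.3, 18.3, 21.5 and 13.3 CPM on the standard diet, with the same 3 mice lowest (log2 change -0.52, limma adjusted p = 0.313). The junction genes Esam and Cldn5 had log2 changes of -0.57 and -0.68 (limma adjusted p = 0.333 and 0.416), and the water channel gene Aqp1 had -0.50 (limma adjusted p = 0.388). Plvap, whose product forms diaphragms across endothelial openings, had the highest level per kilobase of transcript of all members, 37.2 CPM per kb on the Longevity diet and 43.9 CPM per kb on the standard diet, with a log2 change of -0.29 (limma adjusted p = 0.502). Emcn, the surface sialomucin endomucin, measured 1.82, 1.62, 2.12, 0.608 and 1.12 CPM on the Longevity diet and 0, 3.26, 3.69, 2.503 and 1.84 CPM on the standard diet. SD_403 was listed at 0 and the other standard diet mice at 1.84 CPM or more, so the fitted change of -0.01 includes that 0; it was -0.97 without SD_403, and its sign turned in 11 of 21 alternative settings.

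On the scale of CPM per kilobase, which allows levels of different genes to be set side by side, Plvap was followed by Clec4g (25.0 CPM per kb on the Longevity diet and 41.6 on the standard diet), Aqp1 (23.7 on the Longevity diet and 33.4 on the standard diet) and Eng (20.7 on the Longevity diet and 27.1 on the standard diet). Egfl7, S1pr1, Ehd3, Dnase1l3 and Fcgr2b came next, between 7.05 and 16.1 CPM per kb on the Longevity diet and between 13.9 and 19.4 on the standard diet. The lowest levels were those of Lyve1, F8, Wnt9b and Emcn, at 0.265, 0.391, 0.463 and 0.563 CPM per kb on the Longevity diet, against 1.03, 0.717, 0.299 and 0.873 CPM per kb on the standard diet.

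The 5 angiocrine ligands, 3 below and 2 above 0, had a median change of -0.04 on the log2 scale, and a median of 0.06 with median-of-ratios scaling, where 2 were below 0. Bmp2 (chromosome 2 from 133394079 to 133404805, plus strand), which drives hepcidin in hepatocytes, measured 10.7, 10.2, 18.2, 10.3 and 8.12 CPM on the Longevity diet, against 14.3, 16.1, 17.1, 19.3 and 22.0 CPM on the standard diet. LD_442 was within the standard diet range and the other 4 Longevity diet mice were below it. The means were 11.5 ± 3.89 CPM on the Longevity diet and 17.8 ± 2.97 CPM on the standard diet (log2 change -0.66, SE 0.23, 95% CI -1.16 to -0.17, limma adjusted p = 0.157). Wnt2 (chromosome 6 from 17988939 to 18030584, minus strand), a central vein and sinusoidal Wnt ligand, measured 4.61, 2.63, 4.08, 2.92 and 2.92 CPM on the Longevity diet and 1.66, 3.00, 2.89, 3.91 and 2.04 CPM on the standard diet. The diets overlapped widely (log2 change 0.36, SE 0.30, 95% CI -0.29 to 1.01, limma adjusted p = 0.560). Wnt9b, the ligand of central vein endothelium, measured 2.20, 1.82, 0.589, 4.23 and 1.62 CPM on the Longevity diet and 0, 2.15, 1.61, 1.83 and 1.17 CPM on the standard diet, and its fitted change of 0.92 (SE 0.79, limma adjusted p = 0.578) includes SD_403, which was listed at 0, and was 0.09 without that mouse. Rspo3, which amplifies Wnt signals at the central vein, measured 3.84, 6.02, 9.23, 5.85 and 8.20 CPM on the Longevity diet, against 7.55, 10.0, 5.39, 7.79 and 5.89 CPM on the standard diet. The ranges of Rspo3 overlapped over most of their width (log2 change -0.17, SE 0.27, 95% CI -0.76 to 0.42, limma adjusted p = 0.779). Egfl7, a secreted factor of the vessel wall, averaged 22.4 ± 9.82 CPM on the Longevity diet and 22.0 ± 4.22 CPM on the standard diet (log2 change -0.04, limma adjusted p = 0.945), and 7.80% of its 50-base stretches also occur in the overlapping gene Gm20532. Signs turned for Rspo3 in 2 and for Egfl7 in 5 of 22 alternative settings.

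The BMP and hepcidin list holds the ligands, receptors and hepatocyte targets around BMP2. Of its 24 genes, 1 fell and 0 rose, and the median log2 change was -0.42. With the deposited scaling 24 of the 24 lay below 0, with median-of-ratios scaling 22, and with quantile normalization 21. The gene that fell was Hjv, hemojuvelin, the BMP co-receptor of hepatocytes, at 49.0, 39.3, 38.6, 34.0 and 32.9 CPM on the Longevity diet, against 97.9, 84.4, 72.2, 69.6 and 74.4 CPM on the standard diet. Its values did not overlap between the diets (log2 change -1.04, limma adjusted p = 0.0114), and it failed the test in 1 of the 22 alternatives, where LD_406 and LD_515 were left out together (adjusted p = 0.139). Hamp2, a close relative of the hepcidin gene Hamp with which it may share reads, measured 309, 45.9, 65.1, 5.04 and 0.423 CPM on the Longevity diet and 3607, 2327, 722, 1626 and 6212 CPM on the standard diet. The diets did not overlap, and the adjusted p was 0.0649 by limma. Hamp itself, named outside the rule, measured 859, 255, 334, 247 and 0.0385 CPM on the Longevity diet. On the standard diet it measured 803, 391, 2443, 676 and 2906 CPM. The diets overlapped for Hamp (log2 change -3.84, limma adjusted p = 0.408). All Longevity diet values lay below all standard diet values for 4 of the 24 genes, and for 3.49% of all genes tested. The BMP target genes Atoh8 (log2 change -1.29, limma adjusted p = 0.0932) and Smad6 (-0.71, 0.124) and the ligand gene Bmp6 (-0.999, 0.402), the last picked outside the rule for named genes as the partner of Bmp2, did not pass. The list was chosen with results of these data known, and its direction is no independent evidence.

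The list built around pericentral hepatocyte genes that respond to Wnt ligands lay on both sides of 0. Of its 25 genes 0 fell and 0 rose, 15 lay below 0 and 10 above (13 below with median-of-ratios scaling). The median log2 change of the list was -0.18. The smallest adjusted p by limma was that of Oat, ornithine aminotransferase (174 ± 46.9 CPM on the Longevity diet and 633 ± 468 CPM on the standard diet, log2 change -1.63, adjusted p = 0.0658), followed by Rgn (-0.66, 0.0728), Notum (0.79, 0.166) and Rhbg (-0.92, 0.238). The Wnt feedback gene Axin2 had a log2 change of -0.55 (limma adjusted p = 0.459), the RSPO receptor gene Lgr5 -0.48 (0.584) and the glutamine synthetase gene Glul 0.12 (0.826). The last 3 genes were picked as familiar Wnt readouts, outside the rule for named genes. The list also holds genes of the Wnt pathway itself, which are not pericentral response genes, and these too are named outside the rule. They are Wls (log2 change -0.59), Ctnnb1 (-0.49), Lgr4 (-0.40), Porcn (-0.34) and Tcf7l2 (-0.27). Each of them counts among the 15 below 0.

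The 4 transcription factor genes were each below 0, with a median log2 change of -0.59. Maf, which encodes the factor c-Maf, measured 20.9, 18.6, 40.9, 35.1 and 22.9 CPM on the Longevity diet and 43.8, 37.3, 33.2, 43.6 and 33.9 CPM on the standard diet, and LD_405, LD_406 and LD_515 were below the standard diet range (log2 change -0.53, limma adjusted p = 0.259). Erg, an ETS factor of endothelial identity, measured 3.61, 3.60, 4.20, 4.98 and 5.46 CPM on the Longevity diet, against 4.40, 9.64, 6.89, 7.16 and 5.32 CPM on the standard diet, with LD_515 this time the highest of its diet (log2 change -0.57, limma adjusted p = 0.274). Gata4, a regulator of sinusoidal identity, and Sox18, a vascular factor, had log2 changes of -0.62 and -0.66 (limma adjusted p = 0.306 and 0.277). Ushbp1 measured 10.3, 8.25, 8.96, 7.67 and 4.27 CPM on the Longevity diet and 17.4, 7.71, 11.1, 10.9 and 14.4 CPM on the standard diet (log2 change -0.64, limma adjusted p = 0.259).

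The lower levels were unevenly spread over the Longevity diet mice. Across the members the median log2 difference from the standard diet mean was -0.41 in LD_405, -0.79 in LD_406, -0.17 in LD_442, -0.37 in LD_513 and -1.16 in LD_515. LD_515 was the lowest mouse of its diet for 24 of 39 members, and LD_442 was the highest for 17. Without LD_515 the log2 change was -0.43 for Gpr182, -0.39 for Dnase1l3, -0.36 for Cldn5, -0.26 for Aqp1, -0.41 for Sox18 and -0.03 for Ramp2. On the standard diet SD_502 was highest for 22 members, and SD_403 and SD_646 were lowest for 14 and 13. The summed level of the members was 946, 616, 951, 770 and 496 CPM on the Longevity diet and 1002, 1126, 1026, 1359 and 1010 CPM on the standard diet, so the sums did not overlap. The sums weigh the most abundant members most. The mean log2 level of the members did overlap, at 2.99 to 3.89 on the Longevity diet and 3.80 to 4.36 on the standard diet. Without LD_406 and LD_515, a choice made after seeing the data, the member median was -0.29 and that of all genes -0.11, 34 members stayed below 0, and the smallest adjusted p by limma was 0.293, with 15 genes fallen in the whole table (0.113%). The whole-series counts of fallen and risen genes also depended on single mice, from 57 to 228 and from 26 to 152 when each mouse was left out.

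**Figure D3:**
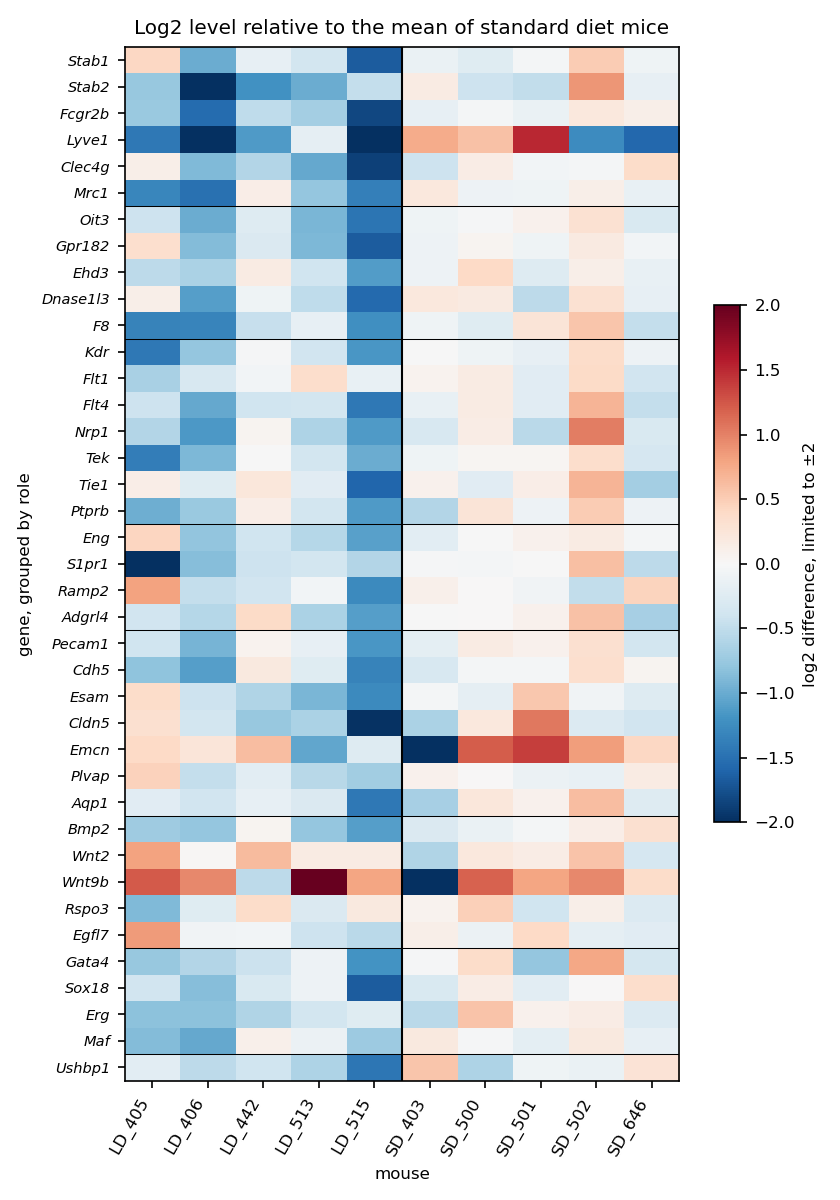
Log2 level of each member in each mouse relative to the mean log2 level of the standard diet, with colours limited to -2 and 2 and the Longevity diet on the left. LD_406, LD_513 and LD_515 are below that mean for 36 members each, and LD_442 and LD_405 for 26 and 25.

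LD_405 differed from the other Longevity diet mice in a way that went with both transcript length and GC content. The deviation of LD_405 from the mean log2 level of the other 4 had a Spearman rho of -0.53 with transcript length over 13001 genes and of -0.48 over the 39 members, given as descriptions across genes of 1 library. With GC content the rho was 0.45 over all genes and 0.56 over the members, and the parts of length and of GC content were not separated. The median deviation of members was 1.12 for the 9 transcripts under 2.5 kb, 0.15 for the 21 between 2.5 and 5 kb and -0.43 for the 9 over 5 kb, and over all genes 0.24, -0.47 and -1.01. Egfl7, with a short transcript, was at 39.3 CPM in LD_405 and 14.9 to 21.0 CPM in the other Longevity diet mice, while Kdr, with a long one, was at 12.9 CPM in LD_405 and 15.5 to 34.3 CPM in the others. Not every long member was lower in LD_405: Stab1, Stab2 and Flt4, also over 5 kb, deviated upwards by 1.21, 0.44 and 0.40 on the log2 scale. Over the other 9 libraries, each set against the mean of the rest of its diet, the rho with length over all genes lay between -0.33 and 0.54. The rho with GC content lay between -0.37 and 0.085 over all genes, and over the members it reached -0.64 in LD_442. For the other Longevity diet mice the reference mean contains LD_405, so their trends are not independent of it. Trends with length were also present on the standard diet, where LD_405 is not in the reference. The rho was 0.47 over all genes and 0.54 over the members in SD_502. It was -0.33 over all genes in both SD_501 and SD_646, and 0.11 in SD_403 and -0.01 in SD_500. Without LD_405, 4 members fell by limma, Fcgr2b (adjusted p = 0.0307), Clec4g, Gpr182 and Eng, where 1.73% of all genes did. Removing the slopes on length and GC content from each library, also chosen after seeing the data, left 0 members fallen, a member median of -0.59 and a smallest adjusted p of 0.0531. Without LD_442, 2 members fell, Fcgr2b (adjusted p = 0.0356) and Mrc1 (0.0131), where 1.29% of all genes did.

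**Figure D4:**
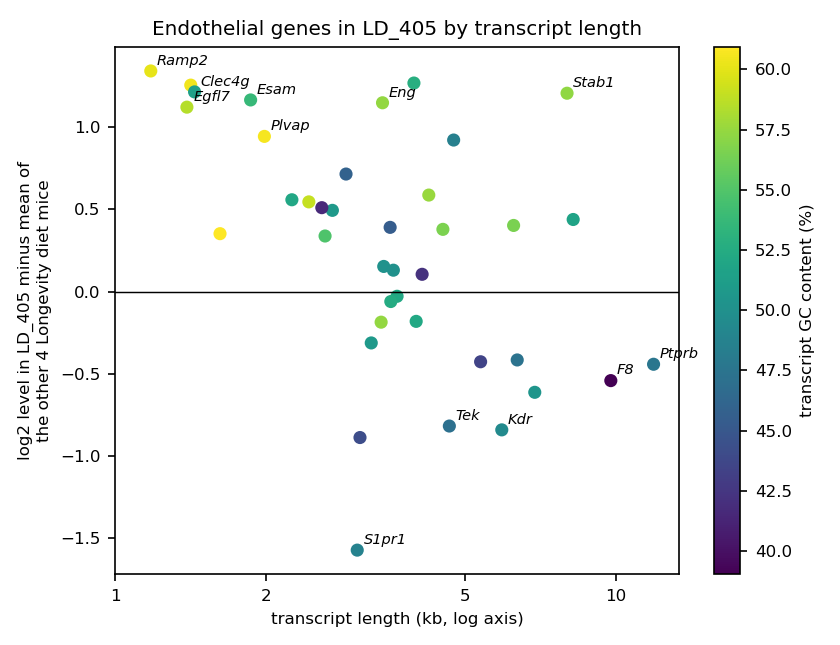
Difference in log2 level between LD_405 and the mean of the other 4 Longevity diet mice for each member, against transcript length in kb on a log axis, coloured by GC content. Members under 2.5 kb have a median of 1.12 and those over 5 kb a median of -0.43.

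Members were also read relative to general endothelial genes, by subtracting in each mouse the mean log2 level of Pecam1, Cdh5, Tie1, Egfl7, Esam, Erg and Ramp2. That mean was 3.20 on the Longevity diet and 3.63 on the standard diet, a difference of -0.42. Of the 32 other members 26 were below 0 on this scale and 6 above, with a median difference of -0.23. Over all genes tested 25.6% were below 0 and the median was 0.31. The difference of -0.42 was subtracted from every gene alike. The all-gene figures are therefore no background for the other members against the general endothelial genes. Log2 changes of the subtracted genes ranged from -0.66 for Cdh5 to -0.04 for Egfl7. Fcgr2b stayed separated, at 1.03 to 1.66 in the Longevity diet mice and 1.70 to 2.29 in the standard diet mice (difference -0.64), as did 0.494% of all genes in that direction. Wnt2 was separated the other way, at -1.69 to -0.97 in the Longevity diet mice and -2.69 to -1.74 in the standard diet mice (difference 0.79), as were 5.54% of all genes. In CPM the diets overlapped for Wnt2, at 2.63 to 4.61 on the Longevity diet and 1.66 to 3.91 on the standard diet. Before the subtraction 3.49% of all genes were separated downwards and 2.01% upwards, so the subtraction itself moved both shares. Stab2 and Mrc1 had differences of -0.69 and -0.54, and Rspo3 of 0.25. The median difference was -0.15 without LD_405 and -0.12 with the slopes on length and GC content removed. No test was made, because the subtracted genes are themselves members.

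Markers of other cells of the sinusoid also stood lower on the Longevity diet. Of 17 Kupffer cell markers 0 fell and 0 rose, 16 were below 0 with a median log2 change of -0.60, and their summed level was 401 to 1134 CPM on the Longevity diet and 725 to 1163 CPM on the standard diet, with 0 markers at 0 in any library. LD_406 and LD_515 were the lowest mice for these markers too, at mean log2 levels of 3.54 and 3.59. Of 18 stellate cell markers 1 fell and 0 rose, 17 were below 0 and the median was -0.79. The marker that fell was Pdgfrb, the PDGF receptor of stellate cells and pericytes (4.35 ± 1.66 CPM on the Longevity diet and 10.8 ± 1.97 CPM on the standard diet, log2 change -1.36, limma adjusted p = 0.0290). It did not pass in 7 of the 22 alternatives. The stellate markers summed to 419 to 704 CPM on the Longevity diet and 673 to 957 CPM on the standard diet, and none was at 0 in any library. Of 18 hepatocyte markers 1 fell and 0 rose, 12 were below 0 and 6 above, with a median of -0.09 (0.01 with median-of-ratios scaling). The marker that passed was Cps1, the first enzyme of the urea cycle (830 ± 251 CPM on the Longevity diet and 1598 ± 263 CPM on the standard diet, limma adjusted p = 0.0376), and it did not pass in 10 of the 22 alternatives. Next by p were Alb, which was higher (log2 change 0.68, limma adjusted p = 0.0831), and Ass1 (-0.98, 0.126) and Fgb (-0.55, 0.137), which were lower. The part of these other cell types, and of the lower depth on the Longevity diet, in the endothelial values was not tested.

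Among the smaller lists, median log2 changes were -0.35 for 4 smooth muscle markers, 0.01 for 6 cholangiocyte markers, -1.45 for 9 B and plasma cell markers, -0.41 for 10 T and NK cell markers and 0.02 for 5 red blood cell genes, with 0 fallen and 0 risen in each. Summed levels were 25.8 to 73.7 CPM on the Longevity diet and 77.9 to 100.2 CPM on the standard diet for smooth muscle, 54.8 to 83.7 CPM on the Longevity diet and 70.4 to 91.8 CPM on the standard diet for cholangiocytes, and 41.6 to 170 CPM on the Longevity diet and 120 to 1005 CPM on the standard diet for B and plasma cells. The 1005 CPM for B and plasma cells was that of SD_403, and the other standard diet mice lay between 120 and 314 CPM. For T and NK cells the sums were 4.40 to 40.3 CPM on the Longevity diet and 9.16 to 37.0 CPM on the standard diet. Red blood cell genes summed to 176 to 559 CPM on the Longevity diet and 96.4 to 788 CPM on the standard diet. Of 7 neutrophil markers 2 fell, Lcn2 and S100a8, and 0 rose, with a median of -2.92 and sums of 11.1 to 42.5 CPM on the Longevity diet and 52.6 to 284 CPM on the standard diet. S100a8, Mpo, Camp and Ngp averaged 0.343, 0, 0.0393 and 0.0731 CPM on the Longevity diet, under the 1 CPM of the filter. These genes passed it only through the standard diet mice, so a lower mean on the Longevity diet was fixed by the filter. Their highest values were in SD_403 and SD_646. Lcn2 did not pass in 9 of the 22 alternatives and S100a8 in 17. Mzb1 of B cells, Cd4 and Cd3d of T cells also passed the filter only through the standard diet mice. They averaged 0.874, 0.831 and 0.916 CPM on the Longevity diet and 2.45, 2.15 and 1.46 CPM on the standard diet. Krt19 of cholangiocytes passed only through the Longevity diet mice (1.04 CPM, and 0.987 CPM on the standard diet). Sums run over all listed genes in the table, and some were at 0 in a library, such as Pax5 of B cells, Cd3d of T cells, Ly6g of neutrophils and Pdpn of lymphatic endothelium. Of 4 lymphatic endothelial markers 0 fell and 0 rose, with a median of -0.56, and sums of 38.8 to 124 CPM on the Longevity diet and 77.7 to 221 CPM on the standard diet. Those sums were mostly Prox1, at 12.4 to 82.9 CPM on the Longevity diet and 38.2 to 144 CPM on the standard diet, and Reln, at 22.6 to 53.9 CPM on the Longevity diet and 34.4 to 71.9 CPM on the standard diet. Hepatocytes also express Prox1, and Reln is on the stellate cell list too. Pdpn, a defining lymphatic marker, did not exceed 0.526 CPM on the Longevity diet and 0.833 CPM on the standard diet, and Mmrn1 did not exceed 0.393 CPM on the Longevity diet and 1.58 CPM on the standard diet.

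**Figure D5:**
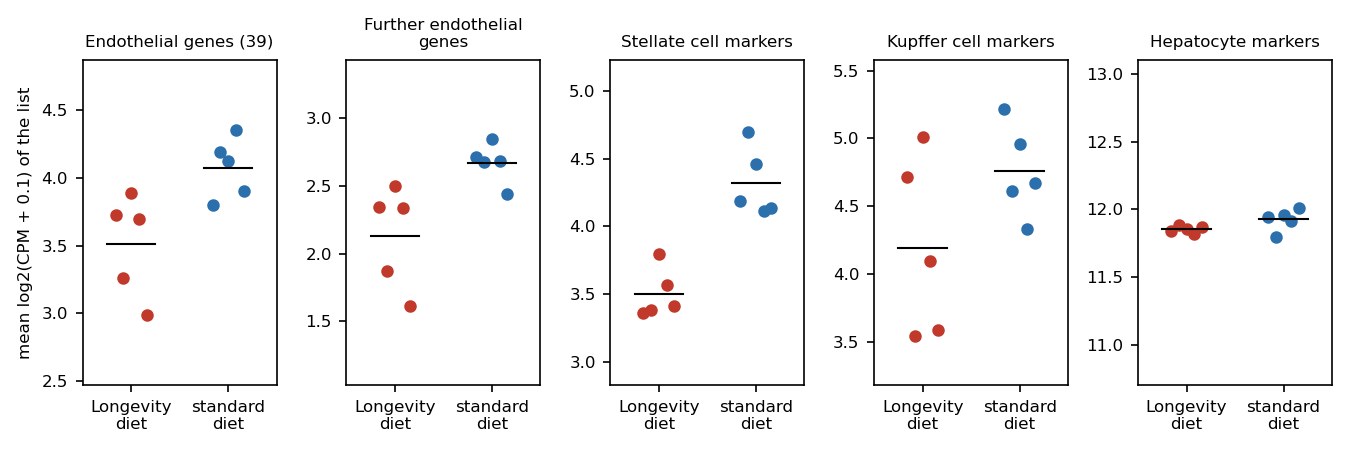
Mean log2 level of marker lists in each mouse, with the Longevity diet left of the standard diet. The stellate means, 3.36 to 3.79 on the Longevity diet and 4.11 to 4.69 on the standard diet, do not overlap, and the Kupffer means, 3.54 to 5.01 on the Longevity diet and 4.33 to 5.22 on the standard diet, do.

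Of further endothelial genes outside the 39, 29 were found and 26 tested, 0 fell and 0 rose, 21 were below 0 and the median log2 change was -0.62. Their median was -0.52 with median-of-ratios scaling and -0.37 with quantile normalization, where the members had -0.51 under each, and no test against the members was made. The 5 Longevity diet values were below all standard diet values for 4 of them, where 3.49% of all genes showed this. Among these was Mmrn2, an extracellular matrix protein of vessels, at 5.56, 4.73, 4.32, 5.38 and 3.58 CPM on the Longevity diet and 15.8, 7.89, 8.03, 11.6 and 7.73 CPM on the standard diet (log2 change -1.06, limma adjusted p = 0.0528). Tspan7, a tetraspanin (log2 change -0.81, limma adjusted p = 0.0774), was a further one, and the C-type lectin genes Clec14a (-0.80, 0.105) and Clec1b (-0.88, 0.153) overlapped. Of 14 tested ligands and partners of VEGF, angiopoietin and Notch signalling 0 fell and 0 rose, 9 were below 0 and the median was -0.41. Vegfb stood higher, at 44.2, 28.1, 25.9, 27.2 and 23.5 CPM on the Longevity diet, against 22.9, 22.8, 15.5, 17.5 and 14.8 CPM on the standard diet, with no overlap (log2 change 0.65, limma adjusted p = 0.142), as 2.01% of all genes did. The Notch target gene Heyl was lower without overlap, but only just, the highest Longevity diet value being 2.04 CPM and the lowest standard diet value 2.06 CPM (log2 change -1.95, limma adjusted p = 0.0845), and Notch1 (-0.82, 0.155) and Vegfc (-0.61, 0.319) overlapped. Heyl averaged 0.955 CPM on the Longevity diet and 3.41 CPM on the standard diet, so it passed the filter through the standard diet mice. The same held among the further endothelial genes for Sox7, at 0.632 CPM on the Longevity diet and 1.86 CPM on the standard diet. Its lower mean was fixed by the filter, and it counts among the 21 below 0.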

How the data were processed

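Liver RNA of 10 mice, 5 per diet, was poly-A selected and sequenced, per the labels' protocols; whether the libraries keep strand is not stated per sample, so antisense reads may be included. STAR, Partek and mm39 are named in the submitters' processing notes, and the quantifier, annotation and filter are not given in the sources used here. The authors deposited 1 table of CPM values, each with 0.0001 added, which was subtracted. The values were not whole reads (below 100 reads, 84.4% to 87.9% came within 0.1 of a whole number), so no count test was run; their step size gave a depth of 24.7 to 45.7 M reads (M, 1e+06). Reads are not independent molecules, so a floor of 3 reads covers counting error only. End positions are the printed stop less 1, as in all 15 mitochondrial genes compared with GENCODE M21. That annotation (GRCm38) gave transcript length and GC content for 98.8% of the genes tested and for 39 members, and the shared 50-base stretches.

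In R 4.3.3, log2(CPM + 0.1) of the 13157 genes averaging 1 CPM or more was fitted on diet alone with limma 3.58.1. Empirical Bayes used a trend and was robust (statmod 1.5.0). Tests were two-sided, with Benjamini-Hochberg adjustment over all genes at 0.05, and rose and fell are used only of genes that passed. Fold changes understate those of low genes. The limma p-values set the diet difference against the spread between mice of the same diet, moderated across genes. With 1 library per mouse that spread also includes differences between libraries.

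The members and all lists (role groups, further endothelial, VEGF and Notch, BMP and hepcidin, Wnt-responsive, and markers of lymphatic, Kupffer, stellate, hepatocyte, smooth muscle, cholangiocyte, B, T and NK, neutrophil and red blood cells) were chosen with earlier results of these data known. Values per mouse are given for the 2 members of smallest p in each role group, for Wnt2, Wnt9b, Rspo3 and Bmp2, and for further members where a mouse stands apart, these being chosen after their values were seen. Up to 4 genes of smallest p are named from each described list. Other pseudocounts, filters, scalings, array weights, thresholds, leaving out each mouse in turn, and a covariate from the leading digit of the mouse number were tried.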

Additional observations from a re-analysis of the deposited data

Results flagged for a closer look

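In 6 of 78 groups of 5 mice, 1 mouse lay apart from the other 4 of its diet by Dixon's criterion, which chance alone meets in about 1 of 20 groups. On the Longevity diet these were LD_442 for Bmp2 (18.2 CPM, the others 8.12 to 10.7), LD_405 for Egfl7 (39.3 CPM, the others 14.9 to 21.0) and LD_515 for Aqp1 (31.2 CPM, the others 64.3 to 75.3). On the standard diet they were SD_502 for Stab1 (52.9 CPM, the others 31.7 to 36.2) and for Kdr (44.6 CPM, the others 30.9 to 34.6), and SD_501 for Esam (16.8 CPM, the others 9.70 to 11.3).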

How the results depend on the processing

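No paired analysis was possible because no mouse number occurs on both diets. Over 59 genes and 22 alternatives, 1182 of 1292 comparisons kept direction and side of the threshold, 45 passed newly, 44 no longer passed and 21 turned sign. The count of members risen was 0 in every alternative. The count fallen was 1, Fcgr2b, with a pseudocount of 1 CPM (adjusted p = 0.0458), no filter (0.04999), a mean of at least 5 CPM (0.0493), quantile normalization (0.0395) and a threshold of 0.1. In these settings, in the same order, 1.31%, 0.85%, 1.35%, 1.12% and 2.58% of all genes fell. At the threshold of 0.1 the 1 of 39 members is about that share. With array weights 5 members fell (Fcgr2b, Clec4g, Oit3, Gpr182 and Eng), where 3.62% of all genes did. Over all genes, fallen and risen counts were 476 and 329 with array weights, 70 and 28 with the leading digit of the mouse number, 339 and 202 at a threshold of 0.1, 15 and 2 without LD_406 and LD_515, and 315 and 169 with length and GC slopes removed. Risen genes numbered 151 under median-of-ratios scaling and 151 under quantile normalization, beside 138 and 148 fallen. Leaving out each mouse gave 0 to 4 members fallen, 57 to 228 genes fallen, 26 to 152 risen, member medians of -0.70 to -0.43 and medians relative to general endothelial genes of -0.30 to -0.15. Log2 changes that turned sign were those of Emcn (0.59 with a pseudocount of 0.01 CPM, 0.0662 with median-of-ratios scaling, 0.20 with quantile normalization, 0.54 with the leading digit, 0.14 with slopes removed, and -0.97 to 0.34 without 1 mouse), Egfl7 (0.0589 with median-of-ratios scaling, 0.13 without LD_406 and LD_515, and -0.27 to 0.0804 without 1 mouse), Rspo3 (0.0406 with quantile normalization, 0.0067 without LD_405), Flt1 (0.0553 with quantile normalization), and, without LD_406 and LD_515, Tie1 (0.0482) and Ramp2 (0.12). The causes were not tested. Depth limits the members near 1 CPM, where 3 reads amount to as much as 0.121 CPM, and 5 mice a diet limit all of them.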
